A study of Rattus norvegicus with 12 samples.

Results

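The 10 genes described here, Spn, Diaph1, Tlk1, Prpf4b, Gnas, Sesn3, Atrx, Nabp1, Nfe2l1 and Pik3ca, had a probe set whose signal was low in the fat of rats carrying an antisense growth hormone (GH) transgene. They are 10 of 14218 named genes on the array and are read by 31 of its 31099 probe sets. The members were chosen on the transgene against ad libitum contrast itself, as the named genes that were lower and had the smallest p when the deposited probe z-scores were fitted. Their difference in that contrast is therefore a description, and no test is given for it. The question that the probe sets can answer is whether a gene's other probe sets show the same pattern.

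Affymetrix arrays, 1 for each sample, measured total RNA of rat epididymal white fat in 3 groups of 4. AL stands for Jcl:Wistar rats without the transgene that ate freely, and CR for Jcl:Wistar rats held at 70% of that energy intake from 6 weeks of age. Tg stands for dwarf rats heterozygous for the antisense GH transgene, which also ate freely. All rats were killed at 24 weeks of age, the morning after food had been offered 30 minutes before the dark phase. The genotype field names a Jcl:Wistar (-/-) rat on all 12 arrays, so the Tg group rests on titles and source names. Which promoter drives the transgene was not stated there. The arrays are labelled as biological replicates, and each group has a description code of its own. Should the code stand for a session of work, session and group cannot be told apart.

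GH acts on fat cells through its receptor and the JAK2 and STAT5 pathway, and in adipose tissue it favours release of stored lipid over its deposition. The 10 genes have no single pathway in common. Spn encodes CD43, a sialoglycoprotein of the white blood cell surface, and Diaph1 a formin that builds actin filaments downstream of RhoA. Gnas, Pik3ca and Sesn3 act in hormone and nutrient signalling. Tlk1, Atrx, Prpf4b and Nabp1 act on chromatin, RNA splicing and DNA repair in the nucleus, and Nfe2l1 encodes a transcription factor.

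Promoter windows, taken from RefSeq on the rat assembly GRCr8, matched 9 of the 10 members with 14 windows. The windows lay on chromosome 18 for Diaph1, 3 for Tlk1 and Gnas, 17 for Prpf4b, 8 for Sesn3, X for Atrx, 9 for Nabp1, 10 for Nfe2l1 and 2 for Pik3ca. Nabp1 is shown because its probes were the most uniform of the 10, and Gnas because the locus has several promoters, whose first exons join common downstream exons. The 120 bases directly before each start are given 5′ to 3′, with capitals on matches to TATAA or GGGCGG on either strand. The regions are chr9:57618821-57618940 for Nabp1 and chr3:183489528-183489647, chr3:183503123-183503242 and chr3:183537219-183537338 for the Gnas windows, all on the plus strand.
Nabp1: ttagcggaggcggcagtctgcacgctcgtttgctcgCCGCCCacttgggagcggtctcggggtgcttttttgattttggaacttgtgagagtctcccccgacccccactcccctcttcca
Gnas window 1: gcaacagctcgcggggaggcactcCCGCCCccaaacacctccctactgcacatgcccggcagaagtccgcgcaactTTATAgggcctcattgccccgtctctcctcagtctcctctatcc
Gnas window 2: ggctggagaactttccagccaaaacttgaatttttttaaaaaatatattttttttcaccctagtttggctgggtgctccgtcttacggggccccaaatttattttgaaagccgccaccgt
Gnas window 3: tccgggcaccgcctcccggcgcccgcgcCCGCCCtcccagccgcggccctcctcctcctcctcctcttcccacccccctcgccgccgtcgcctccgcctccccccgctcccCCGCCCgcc
The Gnas windows differ: window 1 holds TATAA and GGGCGG, window 2 neither, and window 3, rich in C and G, holds GGGCGG only.

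Over the 250 bases before each start, G and C made up 38.8% of the Pik3ca window and 83.2% of Gnas window 3, the extremes of the 14. At least 60% G and C was found in 10 of the 14 member windows and in 25.3% of all 33469 windows in the table. GGGCGG, searched on both strands, was in 10 member windows and in 30.5% of all windows. CCAAT was in 6 member windows against 34.0% of all, and TATAA in 2 against 24.0%. The letters TTCNNNGAA, the core that STAT5 binds, were in 0 of the 14 windows and in 7.7% of all windows. Motifs were counted separately, and GGGCGG raises the G and C content of a window that holds it. The share of all windows was taken with no limit to genes on the array or bright enough to test, unlike the members. Windows of 1 gene are not independent, and these counts describe the letters only.

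Signals below are log2 of the deposited intensity per probe set, each a value from 1 array, and group values are mean ± SD with n = 4. A difference is between group means on that scale, with the standard error (SE) of a limma fit across all 12 arrays and all probe sets tested. Of those 23281 probe sets, 0 (0%) passed an adjusted p under 0.05 for Tg against AL in limma, 1385 (5.95%) had an unadjusted p under 0.05, and 2 (0.00859%) passed in the fit on probe z-scores. For each gene, the probe set with the smallest p for that contrast is called the selected probe set. By p on the deposited intensities, that of Gnas ranked 133 and that of Spn 34, against 7 and 1 in the z-score fit. The other members ranked from 2 (Tlk1) to 19 (Pik3ca) on the deposited intensities.

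**Figure D1:**
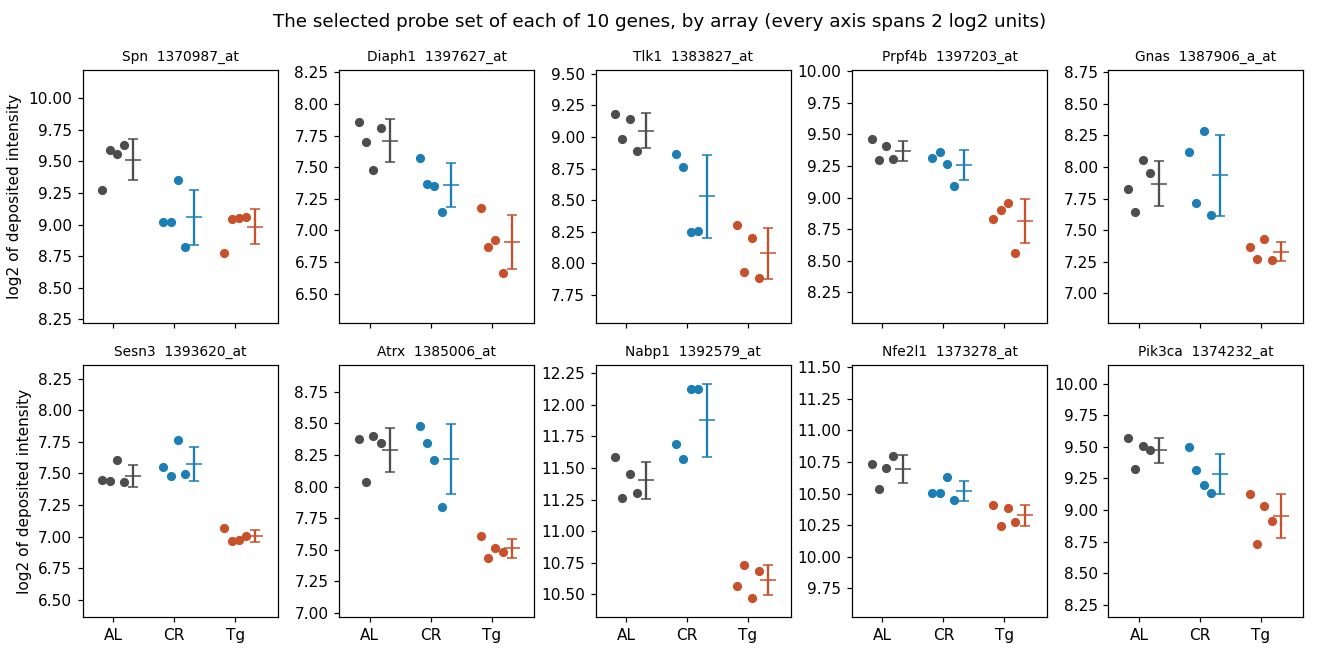
Log2 of the deposited intensity (vertical axis) of the selected probe set of each of the 10 genes on each of the 12 arrays, by group and bars for the group mean ± SD. In every panel the 4 Tg points lie below the 4 AL points, which the choice of the genes makes likely. The CR points lie with AL for Gnas, Sesn3 and Atrx, with Tg for Spn, and highest for Nabp1.

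In all 10 genes the selected probe set had its 4 Tg arrays below its 4 AL arrays, a pattern found in 607 of the probe sets tested (2.61%). The members were chosen for low p and lower values in the z-score fit of this contrast, which makes the pattern likely, so the count shows nothing further. The differences ran from -0.97 in Tlk1 to -0.36 in Nfe2l1, with a median of -0.55, while the median of all probe sets tested was -0.01. In the z-score fit the last member inside the choice was Pik3ca, at -0.59. The next genes in p were Pa2g4 at -0.39, Tbc1d12 at -0.62, Rnd1 at -0.48, Ddx6 at -0.58 and Hmbox1 at -0.48, so the step from inside to outside was one of rank and not of size. Uri1, ranked between the members, was higher in Tg by 0.70 and so is not one of them.

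Spn, which is made by T cells, monocytes and other blood-derived cells and restrains their adhesion, has a single probe set, 1370987_at. It read 9.27, 9.59, 9.55 and 9.63 on the AL arrays, 9.02, 9.02, 9.35 and 8.83 on the CR arrays, and 8.78, 9.04, 9.05 and 9.06 on the Tg arrays. Tg and CR lay together under AL, though CR3 was above AL1. The means were 9.51 ± 0.16 in AL, 9.06 ± 0.22 in CR and 8.98 ± 0.14 in Tg, and Tg was 1.44-fold lower than AL (-0.53, SE 0.12). In whole fat, fewer cells of a type and less RNA per cell cannot be told apart. The z-score summary drew the Spn groups apart more tightly, at 8.39 ± 0.07 in AL, 7.94 ± 0.07 in CR and 7.89 ± 0.03 in Tg, with no overlap of AL with CR.

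Diaph1 was represented by 2 probe sets, which did not show the same pattern. The selected one, 1397627_at, read 7.86, 7.70, 7.47 and 7.81 in AL, 7.58, 7.37, 7.35 and 7.14 in CR, and 7.18, 6.87, 6.92 and 6.66 in Tg. The groups stepped down from AL through CR to Tg, with means of 7.71 ± 0.17, 7.36 ± 0.18 and 6.91 ± 0.21. Tg was 1.74-fold lower than AL (-0.80, SE 0.13). The other, 1373221_at, was brighter and read 10.27, 10.09, 10.25 and 10.38 in AL and 10.20, 10.11, 10.34 and 10.29 in Tg. Its Tg and AL arrays lay within each other's range, at a difference of -0.01 (SE 0.09).

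Gnas encodes the alpha subunit of the stimulatory G protein, which carries the beta-adrenergic signal to adenylyl cyclase and so to lipolysis. All 3 of its probe sets were lower in Tg, by unequal amounts. The selected 1387906_a_at read 7.83, 7.64, 8.05 and 7.95 in AL, 8.12, 7.71, 8.29 and 7.62 in CR, and 7.36, 7.27, 7.43 and 7.26 in Tg. The 4 Tg values were close together and under every AL and CR value, and Tg was 1.45-fold lower than AL (-0.54, SE 0.15). Probe set 1390263_at read 7.59, 7.18, 7.83 and 7.91 in AL and 7.15, 7.09, 7.17 and 7.02 in Tg. It was lower in Tg by a similar amount (-0.52, SE 0.17), here with AL2 next to the Tg values. The third, 1369897_s_at, had a mean signal of 13.94 and differed by -0.13 (SE 0.08). It had 8 single probe values over the saturation level the authors give, and every other member probe set had 0. Which transcripts of the locus each probe set reads was not tested, since probe sequences were not used here.

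Pik3ca encodes the p110 alpha catalytic subunit of the phosphatidylinositol 3-kinase that insulin and growth factor receptors switch on. Its selected probe set, 1374232_at, read 9.57, 9.33, 9.51 and 9.48 in AL, 9.50, 9.31, 9.19 and 9.14 in CR, and 9.13, 8.73, 9.03 and 8.91 in Tg. The Tg arrays lay below every other array, CR4 being nearest, and the difference from AL was -0.52 (SE 0.10), 1.44-fold. Of its 5 other probe sets, 1 was lower in Tg and 4 were higher, from -0.04 in 1396411_at to 0.24 in 1393499_at. The 4 Tg arrays were below the 4 AL arrays in 1 of the 6 probe sets, the selected one.

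Sesn3 encodes sestrin 3, a target of FoxO factors that restrains the growth regulator mTORC1. The selected 1393620_at read 7.45, 7.44, 7.61 and 7.43 in AL, 7.55, 7.48, 7.77 and 7.50 in CR, and 7.07, 6.97, 6.97 and 7.01 in Tg. CR and AL lay together, and Tg stood below both with little spread (SD 0.05), 1.39-fold under AL at 7.48 ± 0.08 (-0.48, SE 0.09). The other Sesn3 probe set, 1390910_at, had a mean of 6.28, was too dim to be tested and was 0.08 higher in Tg.

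Tlk1, a kinase that phosphorylates the ASF1 histone chaperones, had the largest difference of the 10 genes. Its selected probe set, 1383827_at, read 9.18, 8.99, 9.15 and 8.89 in AL, 8.87, 8.76, 8.25 and 8.25 in CR, and 8.31, 7.93, 8.20 and 7.88 in Tg. CR lay below AL on every array and was split, with CR1 and CR2 near AL and CR3 and CR4 among the Tg values. Tg was 1.96-fold lower than AL (-0.97, SE 0.16). By contrast 1382114_at, the brighter, read 9.94, 9.82, 10.13 and 9.91 in AL and 10.13, 10.09, 10.09 and 9.97 in Tg, a difference of 0.12, and 1386850_x_at differed by -0.10.

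Atrx encodes a chromatin remodeller that with DAXX places the histone variant H3.3 in repeated sequence. Of its 6 probe sets, 4 were lower in Tg and 2 were higher. The selected 1385006_at read 8.38, 8.04, 8.40 and 8.35 in AL, 8.48, 8.34, 8.21 and 7.84 in CR, and 7.61, 7.44, 7.52 and 7.48 in Tg. Tg was 1.71-fold lower than AL (-0.78, SE 0.13), below every CR array as well. Probe set 1393798_at, dimmer, was lower by about as much (-0.77, SE 0.25), with its Tg arrays all below AL. The others were 1389989_at at -0.39, 1393596_at at -0.16, 1386683_at at 0.12 and 1384742_at at 0.13.

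Prpf4b, a kinase of the spliceosome, was lower in Tg by 1 probe set and higher by 3. The selected 1397203_at read 9.46, 9.30, 9.41 and 9.31 in AL, 9.31, 9.36, 9.26 and 9.09 in CR, and 8.83, 8.90, 8.96 and 8.56 in Tg. CR stayed near AL while Tg was 1.47-fold lower than AL (-0.56, SE 0.09). In 1382646_at the order was turned: Tg ran from 9.29 to 9.37, above every AL array (8.91 to 9.24), at a difference of 0.28. The remaining probe sets differed by 0.27 (1385533_at) and 0.07 (1376010_at).

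Nabp1 encodes a single-stranded DNA binding protein of the SOSS complex, which acts at DNA double-strand breaks. Its only probe set, 1392579_at, read 11.58, 11.27, 11.45 and 11.30 in AL, 11.69, 11.57, 12.13 and 12.12 in CR, and 10.57, 10.73, 10.47 and 10.68 in Tg. The Tg arrays lay below all AL arrays, CR3 and CR4 were the highest arrays, and CR2 was just under AL1. Means were 11.40 ± 0.15 in AL, 11.88 ± 0.29 in CR and 10.61 ± 0.12 in Tg, and Tg was 1.73-fold lower than AL (-0.79, SE 0.13).

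Nfe2l1 encodes a factor of the endoplasmic reticulum that moves to the nucleus and raises proteasome genes when proteasomes fail. All 3 of its probe sets were lower in Tg. The selected 1373278_at, also the brightest of the gene, read 10.73, 10.54, 10.70 and 10.79 in AL, 10.50, 10.50, 10.63 and 10.45 in CR, and 10.41, 10.24, 10.39 and 10.28 in Tg. The difference was the smallest of the 10 genes (-0.36, SE 0.07). Probe set 1375253_at read 8.96, 9.13, 8.93 and 9.15 in AL and 8.87, 8.64, 8.72 and 8.75 in Tg, again with Tg below every other array (-0.30, SE 0.07). The third, 1390068_at, differed by -0.16.

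**Figure D2:**
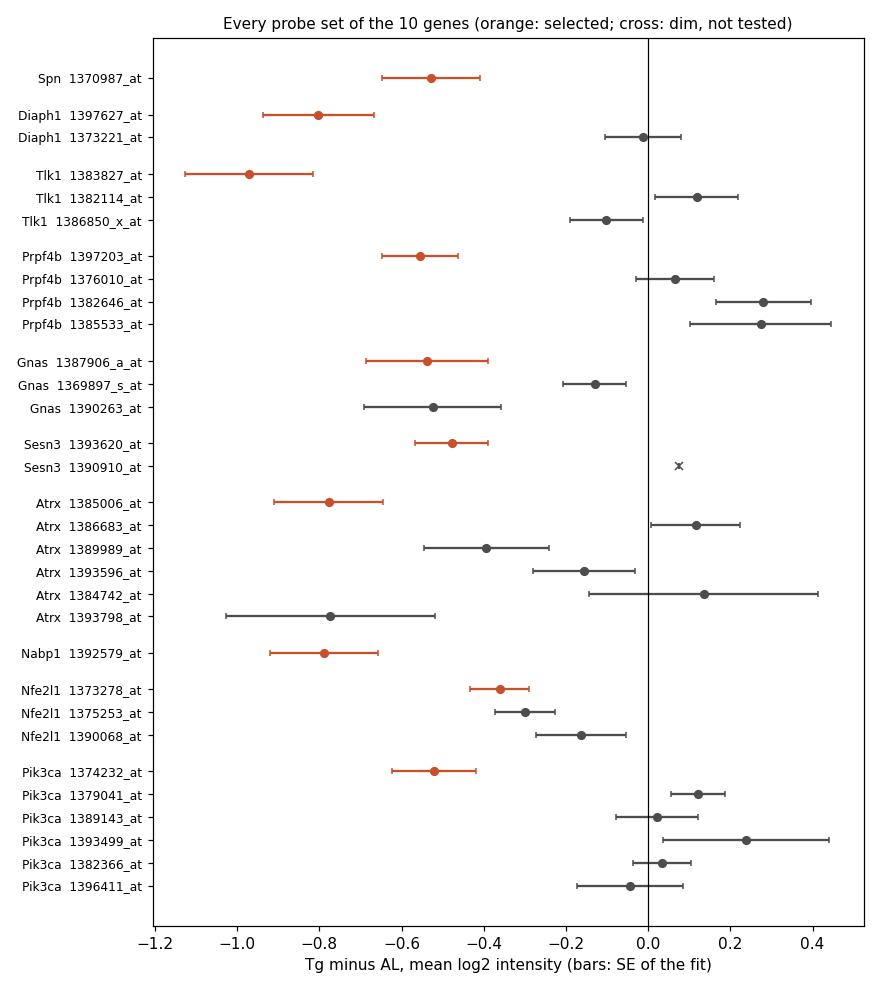
Difference of mean log2 intensity, Tg minus AL (with SE), for all 31 probe sets by gene; selected, other tested and dim untested probe sets are marked apart. The selected probe sets lie between -0.97 and -0.36, and the other tested ones lie on both sides of 0.

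Among the genes with more than 1 probe set, the others followed the selected one in some and not in others. Of the 20 other probe sets that were bright enough to test, 10 were lower and 10 were higher in Tg, 17 differed by less than 0.3, the other 3, 1 of Gnas and 2 of Atrx, were lower, and the median difference was 0.00. With each array left out in turn the number lower ran from 9 to 12. All 4 Tg arrays were below AL in 3 of them, 1 each of Gnas, Atrx and Nfe2l1, against 2.61% of all probe sets tested, and all were above AL in 1, of Prpf4b, against 1.78%. Among the 7 genes with several tested probe sets, Diaph1, Gnas and Nfe2l1 were lower by every one, Diaph1 by only 0.01 in its second. The selected probe set was the brightest in 2 of the 8 genes, Sesn3 and Nfe2l1.

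Each probe set is made of 11 probes, whose z-scores were deposited one by one. They were part of the values that chose the members, so they show only whether a difference sits in a few probes. All 11 probes were lower in Tg for 8 of the selected probe sets, and 10 of 11 for Gnas and Sesn3. Nabp1 was the most uniform: all 4 Tg arrays were below all AL arrays in 11 of 11 probes, and probe differences ran from -0.97 to -0.58. Sesn3 had such a gap in 3 probes, the fewest of the 10, with differences from -0.97 to 0.00, and the widest spreads were those of Gnas, from -1.05 to 0.82, and Diaph1, from -1.71 to -0.05. The 1 Gnas probe at 0.82 stood alone, while the median of its 11 was -0.48. In the other direction, 0 of 11 probes were lower in Tg for Prpf4b 1382646_at and for Pik3ca 1379041_at and 1393499_at, and 1 of 11 for Tlk1 1382114_at. In those probe sets the difference in sign from the selected one was thus shared by most probes.

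**Figure D3:**
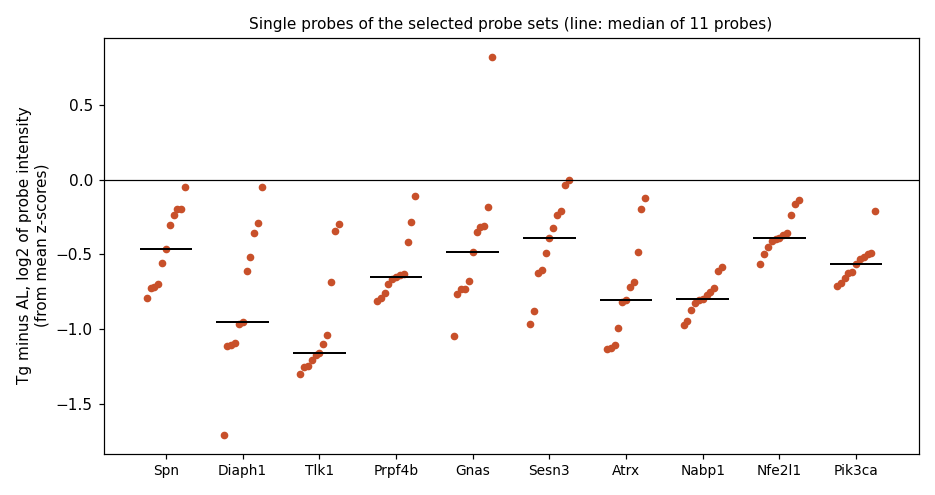
Difference in mean log2 probe intensity, Tg minus AL, for each of the 11 probes of the 10 selected probe sets, with the median as a line. Nabp1 probes lie in a narrow band from -0.97 to -0.58, and the one clearly positive probe, at 0.82, belongs to Gnas.

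The CR rats show where the same probe sets stood under restriction. CR against AL shares the AL arrays, and CR against Tg the Tg arrays, with the contrast that chose the members, so neither is independent of that choice. Choosing on high AL and low Tg values by itself tends to leave CR between them. CR means lay above Tg in all 10 selected probe sets and between Tg and AL in 7. All CR arrays were above all Tg arrays in 7 of 10, against 5.03% of all probe sets tested, and all were below AL in 1, Tlk1, against 5.61%. All CR arrays were above AL in 0 of the 10, against 4.3%.

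For CR against AL, 0 of the 10 selected probe sets passed limma's test, where 338 of 23281 (1.45%) did. An unadjusted p under 0.05 was found in 5, against 16.7% of all probe sets, and the z-score fit, which called 1.79% of all probe sets, called 1, Spn. Spn was lower in CR by 0.46 on the log2 scale (CR minus AL -0.46, SE 0.12, limma adjusted p = 0.0843). Its z-score value was -0.45 (limma adjusted p = 0.00854). The members were chosen in that same fit, with the same AL values and spread, so this p is not independent of the choice. Nabp1 was the member furthest above AL in CR (0.48, SE 0.13, limma adjusted p = 0.0988), with CR and AL arrays overlapping. Tlk1 stood at -0.52 (limma adjusted p = 0.129) and Diaph1 at -0.35 (limma adjusted p = 0.22). Nfe2l1, Pik3ca, Prpf4b and Atrx had values from -0.19 to -0.07, and Gnas and Sesn3 values of 0.07 and 0.09. Of the 20 other tested probe sets, 0 passed in limma or in the z-score fit, and 6 had an unadjusted p under 0.05, against the same 16.7%.

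For CR against Tg, 4 of the 10 selected probe sets passed, all higher in CR, where 171 probe sets (0.735%) were higher overall and 291 (1.25%) passed. The low Tg values that chose the members are 1 side of this comparison, so the excess over that share shows nothing further. Nabp1 was 2.40-fold higher in CR than in Tg (1.27, SE 0.13, limma adjusted p = 0.00298). Sesn3 was higher by 0.57 (SE 0.09, limma adjusted p = 0.0158), Atrx by 0.71 (limma adjusted p = 0.0318) and Prpf4b by 0.44 (limma adjusted p = 0.0463). Of these 4, Prpf4b alone did not pass in the z-score fit (0.34, limma adjusted p = 0.103). Deviations from the group mean of CR and Tg arrays with the same replicate number correlated at 0.32 to 0.62. The best partner had the same number for 1 and 4 but not for 2 and 3, so a pairing is uncertain. With the number as a block and all 12 arrays, 2 passed instead of 4, with a limma adjusted p of 0.0152 for Nabp1, 0.0415 for Sesn3, 0.0576 for Atrx and 0.0513 for Prpf4b. With the block and the CR and Tg arrays alone, Nabp1 passed (limma adjusted p = 0.035) and Sesn3 did not (limma adjusted p = 0.0701). Gnas was 0.60 higher in CR (limma adjusted p = 0.0783), and at 0.0307 the z-score fit, which called 1.66% of all probe sets, passed it, as it did Diaph1, which was 0.45 higher (limma adjusted p = 0.127, and 0.042 in the z-score fit). Tlk1, Pik3ca and Nfe2l1 were higher by 0.45, 0.33 and 0.19, with limma adjusted p of 0.176, 0.138 and 0.204. Spn differed between CR and Tg by less than its SE (0.07, SE 0.12, limma adjusted p = 0.817). Leaving out 1 array in turn, the number of selected probe sets that passed ran from 1, without Tg2, Tg3 or CR1, to 5, without CR4, and was 2 without Tg1, Tg4, AL1, AL4, CR2 or CR3, with Nabp1 passing each time. Of the 20 other tested probe sets, 0 passed in limma or in the z-score fit, and 7 had an unadjusted p under 0.05, against 16.9% of all probe sets.

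**Figure D4:**
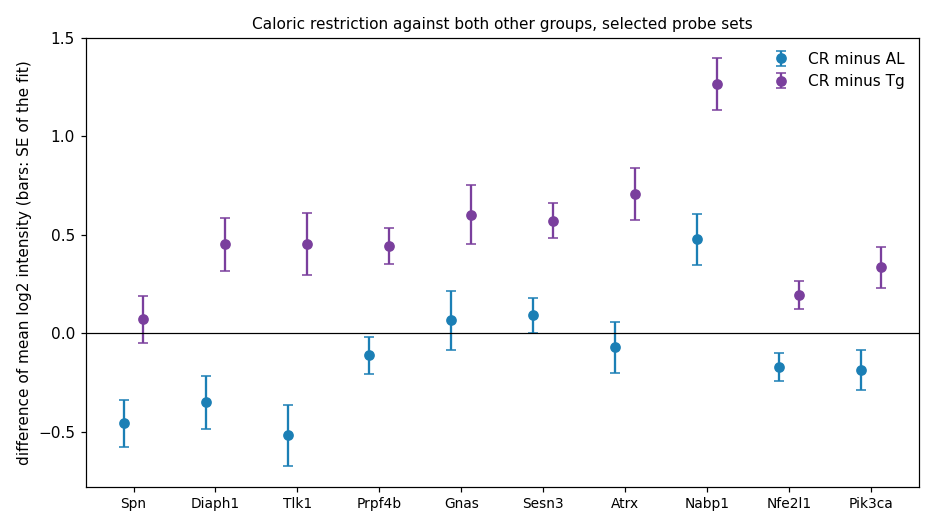
Difference of mean log2 intensity of the selected probe sets, CR minus AL and CR minus Tg, with bars for the SE of the fit. CR stands above Tg by 1.27 in Nabp1 and by 0.07 in Spn, and below AL by the most in Tlk1 (-0.52) and Spn (-0.46).

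Partners of the 10 genes were read on 1 probe set per gene, the brightest one tested, in lists chosen with earlier results known. The list with most members past the test was that of leukocyte surface genes, to which Spn belongs. It also holds Msn, Ezr and Rdx, whose proteins lie inside the cell, and of these Msn passed for CR against AL. Of the 24 tested genes of the list, 7 fell in CR against AL and 0 rose, where 0.816% of all probe sets fell. The list's median was -0.39 against 0.00 for all probe sets. Ptprc, which encodes the pan-leukocyte phosphatase CD45, fell by 0.74 (SE 0.09, limma adjusted p = 0.00678), and Adgre1, an adhesion receptor of macrophages, by 0.69 (limma adjusted p = 0.0167). In Tg against AL 0 of the 24 passed in limma, as 0 of all probe sets did. An unadjusted p under 0.05 was found in 10, against 5.95% of all probe sets. All 10 were lower, as were all such genes of the other lists, and 1 of the 10 was Spn itself, chosen on this contrast. Of the 24, 19 were lower, with a median of -0.24 where that of all probe sets was -0.01. The mean log2 level of macrophage markers (7 of 7 genes tested) was 10.61 to 10.87 in AL, at most 10.26 in CR and 10.52 to 10.85 in Tg, and that of T lymphocyte markers (7 of 7) 7.70 to 8.21, 7.68 to 7.83 and 7.68 to 8.11. The part of leukocyte content in the Spn values was not tested. The 3′ minus 5′ log2 signal of the control gene Gapdh, a sign of RNA quality, also separated CR (0.03 to 0.23) from AL (0.25 to 0.75), at an exact permutation p of 0.0286, two-sided, the smallest 4 arrays against 4 can give, and 0.24 adjusted over 17 measures. That of hexokinase had an exact permutation p of 0.0571 (0.32 adjusted), that of beta-actin 0.54 (0.62 adjusted), and their part in the falls in CR was not tested.

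**Figure D5:**
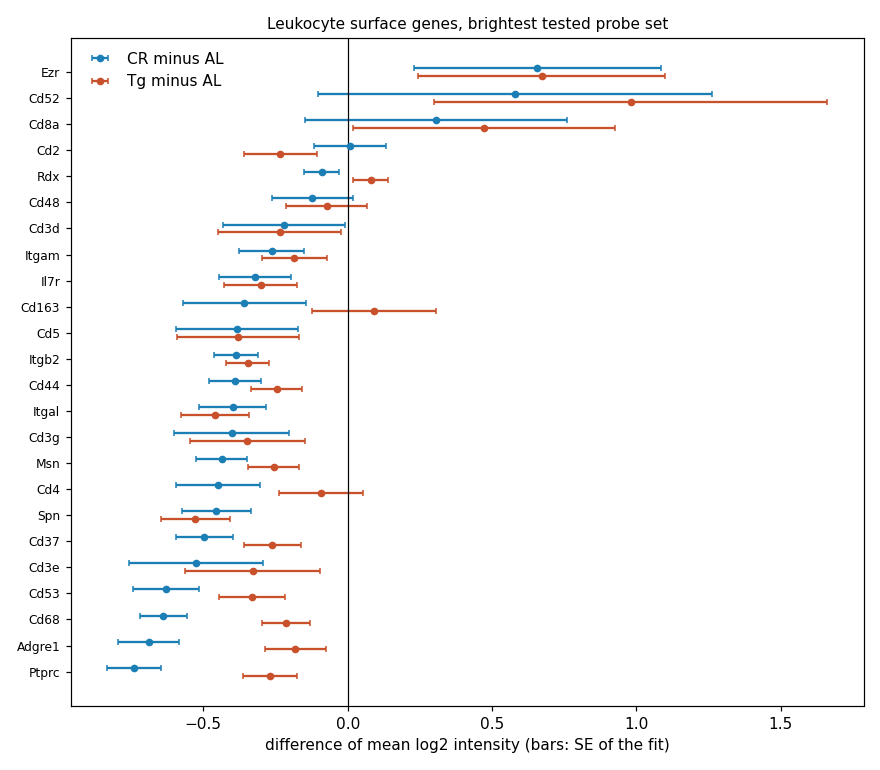
Difference of mean log2 intensity, CR minus AL and Tg minus AL, with bars for the SE of the fit. The 24 tested genes of the leukocyte surface list, Msn, Ezr and Rdx included, are in order of the CR difference. Spn lies to the left at -0.46 in CR and -0.53 in Tg, while Ptprc, at -0.74 in CR, stands at -0.27 in Tg.

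In the other lists few genes passed for CR against AL, where 1.45% of all probe sets tested passed and 0.816% passed and fell. Among 15 formin and actin genes 2 fell, Fmnl2 by 0.57 (limma adjusted p = 0.0167) and Fmnl1 by 0.43 (limma adjusted p = 0.0203), both formins of the family of Diaph1. Of 20 genes of the Gs and cAMP pathway 1 fell, the cAMP phosphodiesterase Pde4b, by 0.43 (limma adjusted p = 0.0385). The lists around phosphatidylinositol 3-kinase (15 tested), sestrins with FoxO and mTORC1 (25), NFE2L1 (14), ATRX with DAXX and TLK (12), single-stranded DNA binding (7) and splicing (16) had 0 genes past limma's threshold. In that order, 1, 7, 5, 4, 1 and 4 of their genes had an unadjusted p under 0.05, where 16.7% of all probe sets did. Their medians for CR against AL lay between -0.14, of the NFE2L1 list, and 0.04, of the sestrin list. For Tg against AL, 0 of the 124 genes of the 8 lists other than the leukocyte one passed in limma, as 0 of all probe sets did. An unadjusted p under 0.05 was found in 13 of them, against 5.95% of all probe sets. All 13 were lower in Tg, as in the leukocyte list. Among the 13, 3 were the selected probe sets of Sesn3, Nabp1 and Nfe2l1, chosen on this contrast. The medians of these lists, members included, lay between -0.08, of the formin list, where 12 of 15 genes were lower in Tg, and 0.06, of the splicing list, where 12 of 16 were higher.

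Adipocyte markers (8 of 8) had a mean log2 level of 13.13 to 13.78 on all arrays, so the labelled tissue carried its defining markers. Other tissues were present unevenly: spermatid markers (6 of 6) reached 11.14 to 13.51 on AL1, AL2, CR1 and Tg2 and 6.13 to 8.10 elsewhere, duct epithelium markers (6 of 6) exceeded 9 on AL3, CR2, CR4, Tg2, Tg3 and Tg4, and exocrine pancreas markers (6 of 6) reached 12.88 on Tg1 alone. Caput epididymis markers (2 of 4) reached 11.84 on CR4 and at most 8.31 on the other arrays. With the spermatid and duct epithelium markers as covariates, the Tg minus AL differences of the 10 selected probe sets ran from -0.91 to -0.36. The choice of the members fixes that direction, and the pancreas and caput markers were not among the covariates. The part of other tissues in the member values was not tested. Between AL and Tg, the 3′ minus 5′ signal of Gapdh was 0.25 to 0.75 in AL and -0.12 to 0.28 in Tg (exact permutation p = 0.0571, two-sided, adjusted over 17 measures 0.66). Its part in the member values was not tested. Probes without a value were most frequent on CR3, at 5.71%, and 0.33% to 1.89% on the other arrays. The median SE of a difference was 0.13 over all probe sets tested, and the number of arrays limits the precision.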

How the data were processed

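The authors deposited a score for every perfect-match probe, a z-score of log10 intensity, and a table with each array's background, mean and SD, per the file headers. They also deposited a table with 1 linear intensity per probe set and array, whose summary method, like the software for each file, was not stated in what was used here. Here log2 of that intensity was taken, with values under 1 set to 1, and no further normalization was applied. The 57 control probe sets and those with a mean at or under the 25th percentile were left out, which left 23281. The fit used lmFit and eBayes with a trend, from limma 3.58.1 under R 4.3.3, with 1 mean per group, 12 arrays, two-sided tests and Benjamini-Hochberg adjustment within a comparison. An adjusted p under 0.05 counts as passing. As an alternative, median polish of the probe z-scores gave a second summary, put on a log2 scale with the arrays' mean SD and mean.

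Gene symbols came from the platform annotation, and only probe sets with 1 symbol were named. The named genes are the 10 members with every probe set, the 5 next in p, and of each list up to 2 genes in a direction with the largest change among those that passed for CR against AL. Fmnl1 and Fmnl2, Ptprc and Adgre1, and Pde4b met that rule, and Uri1 was named after its values were seen. Msn, Ezr and Rdx were named because their proteins lie inside the cell. The members and lists were chosen with earlier results of these data known. Marker levels are means of log2 values over a list, compared with exact permutation tests. The fit was tested on simulated data.

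Replicate numbers come from the titles. Deviations from the group mean of CR and Tg arrays with the same number correlated at 0.52, 0.32, 0.47 and 0.62, all above 0.1. The number was therefore used as a block in alternative fits, while the main fit used no block. For Tg with AL the values were 0.25, 0.45, -0.30 and -0.18 and for CR with AL 0.49, -0.32, -0.49 and -0.21, so those were not. Between CR and Tg, the best partner had the same number for 1 and 4 but not for 2 and 3, so that pairing is uncertain.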

Additional observations from a re-analysis of the deposited data

Results flagged for a closer look

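A single array stood far from the other 3 of its group in 6 of the 93 groups of 4 values (31 probe sets in 3 groups), where chance gives about 1 in 20. In selected probe sets, Spn 1370987_at read 8.78 on Tg1 where the nearest Tg array read 9.04, Sesn3 1393620_at read 7.61 on AL3 against 7.45 on the nearest, and Atrx 1385006_at read 8.04 on AL2 against 8.35. Atrx 1389989_at was also low on AL2, at 7.92 against 8.29. CR3 was low in Tlk1 1382114_at, at 9.44 against 9.81, and in Pik3ca 1393499_at, at 8.15 against 9.05.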

How the results depend on the processing

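The differences of the 10 selected probe sets between Tg and AL stayed below 0 in 227 of 227 settings, a direction that their choice fixes. With the dim filter at the 50th percentile only 7 of the 10 were tested, those of Diaph1, Gnas and Sesn3 being left out. For Tg against AL, 0 probe sets passed, except for 2 with the probe z-scores and 2 without CR4, and leaving out each array in turn gave 0 to 2.

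For CR against AL, the count of 338 became 203 with no filter on dim probe sets, 52 with the 2 groups alone, 221 with no trend, 150 with the replicate block, 81 without CR3, CR4 and Tg1, and 1446 with marker covariates. For CR against Tg, the count of 291 became 179 with array medians centred, 20 with the 2 groups alone, 189 with no trend, 116 with the replicate block, 95 with the block and CR and Tg alone (chosen after seeing the data), 76 without CR3, CR4 and Tg1, and 1262 with marker covariates. Leaving out 1 array gave 44 (without AL4) to 283 (without CR4) for CR against AL, and 40 (without Tg2) to 468 (without CR4) for CR against Tg. The cause was not tested, beyond the smaller number of arrays in some settings.

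Of the selected probe sets, 0 passed for CR against AL, and 1, Spn, did with the probe z-scores. For CR against Tg, the 4 became 6 with marker covariates, 5 with the probe z-scores, 1 with the 2 groups alone, 2 with the replicate block, 1 with the block and CR and Tg alone, 1 to 5 with 1 array left out, and 2 without CR3, CR4 and Tg1. Nabp1 passed in 24 of 24 settings, Sesn3 in 17 of 23, Atrx in 12 of 24 and Prpf4b in 5 of 24. Over those settings the limma adjusted p of Prpf4b ran from 0.0249 to 0.151. No value that passed changed its direction. Between CR and AL, and between Tg and AL, the block changed no call among the members.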
